A study of Mus musculus with 9 samples.

Results

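The TRAJ genes numbered 50 and above are the J segments of the mouse T cell receptor alpha locus that lie nearest to the V genes. They were taken as every productive alpha chain (TRA) contig whose first J call was a TRAJ gene with a number of 50 or more, and each distinct combination of V gene, J gene and junction was counted once per library. TRAJ50, TRAJ52, TRAJ53, TRAJ56, TRAJ57 and TRAJ58 met this rule, 6 of the 43 J genes seen. They gave 1676 of 12990 distinct TRA chains in the 6 main libraries and 2799 of 22252 in all 8 libraries used.

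An alpha chain is made in a thymocyte by joining 1 TRAV gene to 1 TRAJ gene, with bases trimmed from both ends and others added between them. The V genes lie on one side of the J cluster, and a join deletes the DNA between its V and its J, so a cell can later replace a first join with one that uses a V gene farther upstream and a J gene farther downstream. The J genes next to the V genes are known as the early-used end of the cluster, and the V genes next to the J cluster as their frequent partners.

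Female mice aged 10 to 11 months, either wild-type (WT) or 5xFAD, were the source of all libraries, which were made from 3 types of lymph node: inguinal (iLN), superficial cervical (sCLN) and deep cervical (dCLN). The 5xFAD line is a transgenic model of Alzheimer's disease whose transgenes are driven by the neuronal Thy1 promoter. Each node type and genotype is 1 library of hashed immune cells, and the number of animals in each library is not given in the sources used here, so a test across libraries measures only the spread between these 6. A deep cervical library titled CD4 and labelled WT, and a library that mixes the 3 node types of both genotypes, are given beside them without a test, because their V and J genes were called against another allele set. The deposited tables hold receptor contigs alone, so T cell markers could not be checked. The main libraries held 1495 to 3664 productive TRA contigs, with a median of 5 or 6 UMIs per contig of TRAJ50 and above. Any pair of libraries shared at most 1 cell barcode among these contigs, and 0 pairs shared a barcode with the same junction. V calls that listed more than 1 gene made up 13.2% to 13.4% of the TRAJ50 and above contigs in the WT libraries and 4.19% to 5.38% in the 5xFAD libraries; for the other TRAJ genes the ranges were 21.3% to 23.5% and 5.51% to 6.24%. No J call of these contigs was ambiguous.

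The annotation (GENCODE for GRCm38) places the 6 genes on the + strand of chromosome 14 within 10.4 kb of a J cluster of 63.8 kb. It lists 12 J genes numbered 50 or above among 60, 6 of which gave no productive chain here (TRAJ51, TRAJ54, TRAJ55, TRAJ59, TRAJ60 and TRAJ61, of which TRAJ59 is annotated as a gene and the rest as pseudogenes). The germline J sequences are shown from the V-facing end to the constant-region end, because their length inside the junction returns in the length results. Capitals mark the bases that fall inside the junction, up to the last base of the conserved phenylalanine codon. TRAJ57 is annotated from 54158505 (65 bases), and its sequence is shown from 54158507 (63 bases).

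TRAJ58 at chr14:54157280-54157342: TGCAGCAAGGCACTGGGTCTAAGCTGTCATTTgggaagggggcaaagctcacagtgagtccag
TRAJ57 at chr14:54158507-54158569: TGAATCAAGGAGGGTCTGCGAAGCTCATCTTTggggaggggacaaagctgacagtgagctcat
TRAJ56 at chr14:54159263-54159325: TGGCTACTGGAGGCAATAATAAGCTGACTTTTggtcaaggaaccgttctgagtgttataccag
TRAJ53 at chr14:54162644-54162709: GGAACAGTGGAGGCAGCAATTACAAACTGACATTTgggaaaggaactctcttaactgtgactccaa
TRAJ52 at chr14:54165316-54165381: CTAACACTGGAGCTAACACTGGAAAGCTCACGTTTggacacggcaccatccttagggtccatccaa
TRAJ50 at chr14:54167590-54167652: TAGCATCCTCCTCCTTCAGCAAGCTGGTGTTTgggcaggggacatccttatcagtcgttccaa

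TRAJ50, TRAJ56, TRAJ57 and TRAJ58 carry 32 bases inside the junction and TRAJ52 and TRAJ53 carry 35. The J part of the contigs was an exact stretch of these sequences in 587 of 591 chains in WT and 1073 of 1085 in 5xFAD, so nearly all chains of both genotypes matched the reference J genes.

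Together the 6 genes made up 12.8% ± 1.05 (SD, n = 6) of distinct TRA chains. The share was 12.7% in dCLN WT (186 of 1467 chains, exact 95% interval 11.0% to 14.5%), 11.3% in sCLN WT (161 of 1428, 9.68% to 13.0%) and 11.8% in iLN WT (244 of 2070, 10.4% to 13.3%). In the 5xFAD libraries it was 13.3% in dCLN (473 of 3567, 12.2% to 14.4%), 13.6% in sCLN (399 of 2926, 12.4% to 14.9%) and 13.9% in iLN (213 of 1532, 12.2% to 15.7%). All 3 5xFAD libraries lay above all 3 WT libraries, by 1.69 ± 0.96 percentage points (SD, n = 3 node types), although the intervals within each node type overlapped. The groups overlapped once chains with an ambiguous V call were left out: the WT shares were then 14.1%, 12.4% and 12.9% and the 5xFAD shares 13.3%, 13.7% and 14.1% in the order dCLN, sCLN and iLN, a mean difference of 0.54 points. The neighbouring TRAJ35 to TRAJ49 were also higher in 5xFAD, at 28.3% ± 0.96 against 26.4% ± 0.65, and TRAJ18 to TRAJ34 lower, at 36.2% ± 1.09 against 38.5% ± 0.22 (SD, n = 3 each). The CD4-titled library gave 13.2% (761 of 5750 chains) and the mixed library 10.3% (362 of 3512), the lowest of the 8.

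TRAJ52 was the most used of the 6 genes, at 2.53% ± 0.44 of chains, followed by TRAJ56 (2.38% ± 0.32), TRAJ57 (2.32% ± 0.47), TRAJ50 (2.22% ± 0.27), TRAJ53 (1.76% ± 0.22) and TRAJ58 (1.55% ± 0.45; SD, n = 6 libraries each). In this order only the step from TRAJ50 to TRAJ53 was larger than the spread of its own within-library difference, 0.46 ± 0.23 points, and it held in 6 of 6 libraries. TRAJ52 exceeded TRAJ58 by 0.98 ± 0.39 points, also in 6 of 6. Just outside the rule, TRAJ49 stood at 3.74% ± 0.33 and TRAJ48 at 3.03% ± 0.51, each with a mean above all 6 genes.

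**Figure D1:**
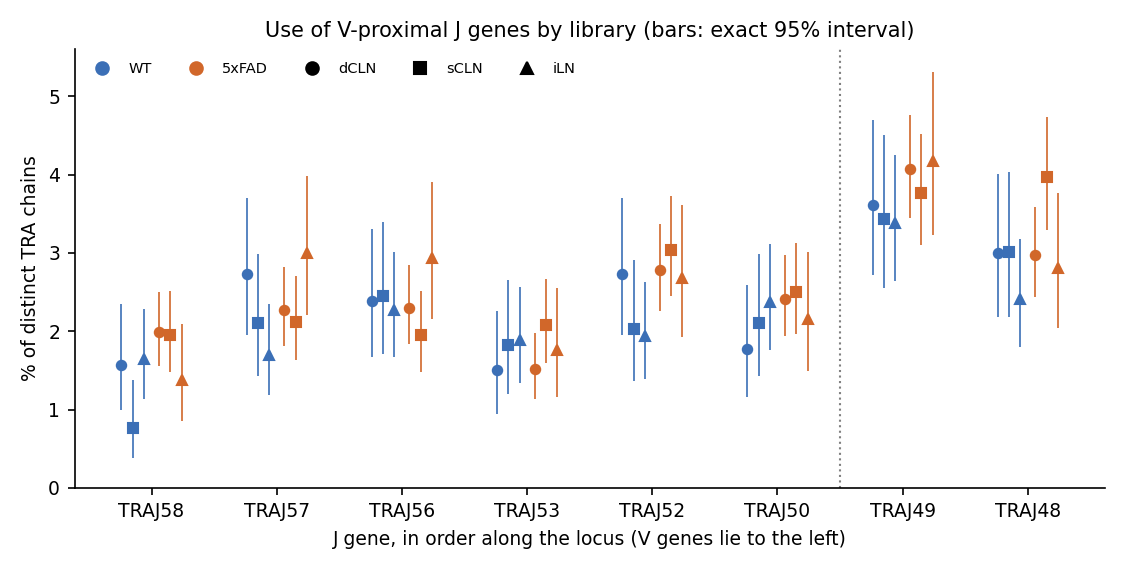
Share of distinct TRA chains (%, y axis) that used each J gene (x axis, in locus order) in the 6 main libraries; symbols give the node type, colours the genotype and bars the exact 95% interval. WT and 5xFAD points overlap for each of the 6 genes left of the dotted line, and TRAJ58 in sCLN WT is the lowest point, at 0.77%.

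For no single gene did the WT and 5xFAD libraries separate (0 of 6, where 23.8% of the 42 TRAJ genes did). TRAJ52 came closest, with WT shares of 2.73%, 2.03% and 1.93% and 5xFAD shares of 2.78%, 3.04% and 2.68% in dCLN, sCLN and iLN. It was higher in 5xFAD in 3 of 3 node types, by a log2 fold change of 0.33 (SE 0.22, adjusted p = 0.58 by the edgeR quasi-likelihood test with Benjamini-Hochberg adjustment over all TRAJ genes). TRAJ58 differed in sCLN, with 11 of 1428 chains in WT (0.77%) and 57 of 2926 in 5xFAD (1.95%), but iLN ran the other way (1.64% in WT and 1.37% in 5xFAD), and its fitted log2 fold change was 0.42 (SE 0.24, edgeR adjusted p = 0.53). The gap in share was widest for TRAJ57 in iLN, with 35 of 2070 chains in WT (1.69%) and 46 of 1532 in 5xFAD (3.00%), while dCLN ran the other way (2.73% and 2.27%). The fitted log2 values of the genes besides TRAJ52 and TRAJ58 were 0.19 for TRAJ50, 0.16 for TRAJ57, 0.04 for TRAJ53 and 0.00 for TRAJ56. None of the 6 passed the edgeR test, where 4.76% of all TRAJ genes did (TRAJ21 and TRAJ22, both lower in 5xFAD). None of the 6 had an unadjusted p under 0.05, and DESeq2 called 0 of them.

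The node types were closer still. The mean of both genotypes was 13.0% in dCLN, 12.5% in sCLN and 12.8% in iLN. The edgeR test of node type called 0 of 42 TRAJ genes (0%), with 1 at an unadjusted p under 0.05, and DESeq2 called 0. The 6 genes had adjusted p-values of 0.91 to 0.94 in that edgeR test.

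The V partners of the 6 genes differed from those of the pooled other J genes. TRAV21, whose gene lies closest to the J cluster among the V genes seen and matched to the annotation, was joined to them far more often than to other J genes, as was TRAV19, its neighbour among those seen. TRAV7, and TRAV1 at the far end of the V cluster, were joined to them less often. Of 19 TRAV subgroups with 10 or more chains, 8 passed the edgeR test of TRAJ50 and above against all other TRAJ within libraries (42.1%), 4 higher and 4 lower.

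TRAV21 made up 9.68%, 9.32% and 9.02% of the TRAJ50 and above chains in dCLN, sCLN and iLN of WT and 9.09%, 6.27% and 9.39% in 5xFAD. Among chains of other TRAJ genes it made up 0.55%, 0.71% and 0.66% in WT and 0.87%, 0.59% and 1.36% in 5xFAD. Every library therefore showed the difference and the 2 sets of values did not overlap. The means were 8.79% ± 1.26 and 0.79% ± 0.30 (SD, n = 6), a log2 fold change of 3.45 (SE 0.30, edgeR adjusted p = 1.6e-18). The CD4-titled library gave 8.28% against 0.78% and the mixed library 7.73% against 0.67%. Of all 231 TRAV21 chains in the main libraries, 143 used TRAJ50 and above (61.9%, exact 95% interval 55.3% to 68.2%), 70 used TRAJ35 to TRAJ49, 15 TRAJ18 to TRAJ34 and 3 TRAJ2 to TRAJ17.

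TRAV19 followed the same order in each library but varied more. It made up 4.84%, 4.35% and 4.92% of the TRAJ50 and above chains in the WT libraries and 1.06%, 3.51% and 1.41% in 5xFAD (dCLN, sCLN, iLN), against 0.30% to 0.52% of the other chains. The log2 fold change was 2.76 (SE 0.42, edgeR adjusted p = 2.1e-08), and 50 of 100 TRAV19 chains used the 6 genes. All 3 WT values lay above all 3 5xFAD values, yet the edgeR test of a genotype difference in this preference did not pass (log2 difference -1.26, SE 0.69, adjusted p = 0.35). Such a separation was not particular to TRAV19. Among chains of TRAJ50 and above, the shares of TRAV3, TRAV4, TRAV5 and TRAV16 also did not overlap between genotypes. The dCLN and iLN values of 5xFAD rest on 5 and 3 chains.

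TRAV1 was nearly absent, with 1 chain among 1676 of TRAJ50 and above (a TRAJ56 chain in dCLN WT) and 182 among 11314 of other TRAJ genes. The ratio of these shares was 0.037 (95% interval 0.00093 to 0.21, counting error only), and the edgeR test gave an adjusted p of 1.8e-05. TRAV1 was found with other J genes in all 6 libraries, at 1.01% to 2.27% of their chains. Of its 183 chains, 123 used TRAJ18 to TRAJ34 and 20 used TRAJ35 to TRAJ49. It was also rare with the J genes just outside the rule, in 1 of 491 TRAJ49 chains and 0 of 402 TRAJ48 chains. TRAV2, the next subgroup at the far end, had 0 of 1676 chains, which allows a share of up to 0.18%, and 21 of 11314 (0.19%) elsewhere, so a difference was not detectable at this depth (edgeR adjusted p = 0.091). Subgroups were also listed by position, with earlier results of these data known, so the following counts are a description only. Of the V-distal TRAV1 and TRAV2, 1 of 2 passed the test, lower. Of the J-proximal TRAV17, TRAV18, TRAV19, TRAV20 and TRAV21, 2 of the 3 with enough chains passed, both higher. Over all 19 subgroups 42.1% passed. TRAV17 had a log2 fold change of 1.33 (SE 0.73, edgeR adjusted p = 0.10) on 9 of 32 chains, TRAV18 had 1 chain, joined to one of the 6 genes, and TRAV20 gave none.

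The other called subgroups differed by less. TRAV7 fell by 0.75 on the log2 scale (SE 0.10, edgeR adjusted p = 1.4e-09) and was lower in 6 of 6 libraries, at 5.91% to 11.3% of the TRAJ50 and above chains against 12.7% to 16.8% of the others. TRAV16 was higher in 6 of 6 libraries, 7.24% ± 1.58 against 4.91% ± 0.49 (log2 0.52), and so was TRAV13, 17.7% ± 2.38 against 13.9% ± 1.89 (log2 0.32). TRAV12, at 6.13% ± 1.71 against 8.30% ± 1.62 (log2 -0.41), and TRAV6, at 18.5% ± 4.34 against 21.7% ± 1.79 (log2 -0.21), were lower in 6 of 6 libraries but lost their call under DESeq2, with adjusted p of 0.055 and 0.11. Without single libraries TRAV12 lost its edgeR call for dCLN 5xFAD, sCLN WT or sCLN 5xFAD (adjusted p from 0.057 to 0.10), and TRAV6 for dCLN WT, sCLN 5xFAD or iLN WT (0.068 to 0.14). TRAV12 and TRAV16 also lost it without ambiguous V calls (adjusted p = 0.22 for both). TRAV12 and TRAV6 lost it under TMM scaling (0.079 and 0.18), without the library block (0.082 and 0.17) and in cells with 1 TRA (0.17 and 0.074), and TRAV16 in cells with 1 TRA (0.074), without TRAJ53 (0.063) and without TRAJ58 (0.10). Leaving out 1 of the 6 genes also ended the calls of TRAV12 (without TRAJ50, TRAJ52 or TRAJ53) and TRAV6 (without TRAJ56, TRAJ57 or TRAJ58), and TRAV6 was not called among contigs of 2 or more UMIs (0.061).

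**Figure D2:**
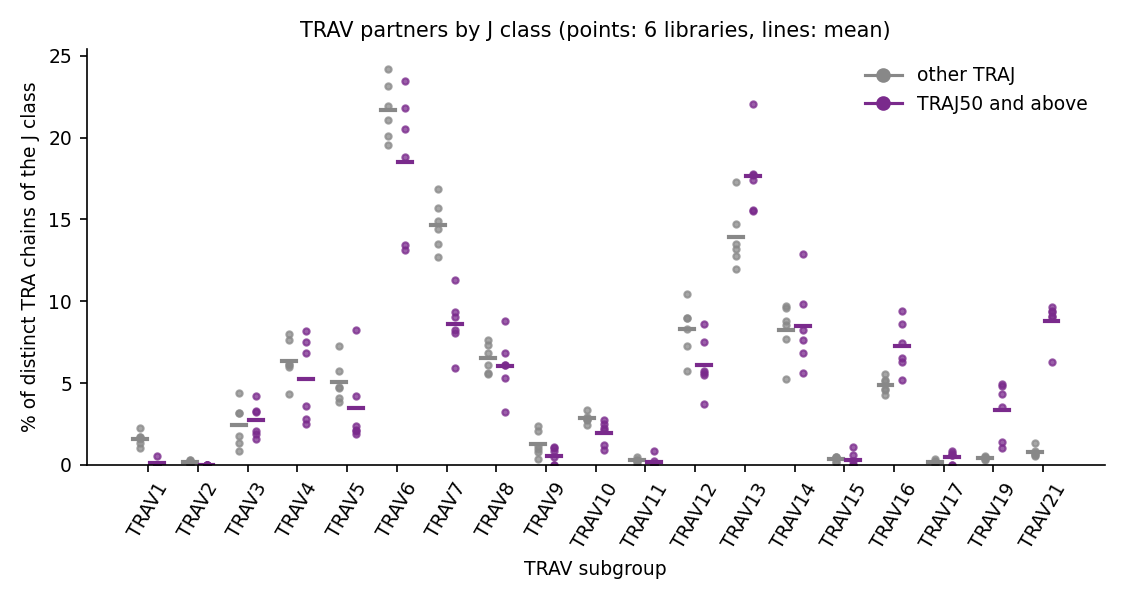
Share of distinct TRA chains (%, y axis) that used each TRAV subgroup (x axis) among chains of TRAJ50 and above (purple) and of other TRAJ genes (grey); points are the 6 main libraries and lines their mean. TRAV21 and TRAV19 are higher in purple in all 6 libraries, and TRAV1 and TRAV7 lower.

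Within the 6 genes the share of TRAV21 was higher in the 3 nearest the V cluster than in the 3 that follow. Pooled over the 6 main libraries it was 14.3% for TRAJ58 (31 of 217 chains), 13.3% for TRAJ57 (39 of 294), 10.6% for TRAJ56 (32 of 301), 4.37% for TRAJ53 (10 of 229), 5.92% for TRAJ52 (20 of 338) and 3.70% for TRAJ50 (11 of 297). By library the share ran from 5.26% to 33.3% for TRAJ58 and from 0% to 11.5% for TRAJ53, so these ranges overlapped. TRAJ52 lay above TRAJ53, which is nearer the V genes, so the shares did not fall at every step. The exact 95% intervals of TRAJ56 (7.39% to 14.7%) and TRAJ52 (3.65% to 8.99%) overlapped. TRAJ49 (3.46%, 17 of 491) and TRAJ48 (2.74%, 11 of 402), just outside the rule, were close to TRAJ50. Ranked by this pooled share over 42 J genes, the 6 genes held ranks 1 to 6 and TRAJ49 and TRAJ48 ranks 7 and 8. As a mean of the 6 libraries, TRAJ49 (4.12% ± 2.43, SD) lay above TRAJ50 (3.61% ± 0.71). The order at the edge of the rule therefore depended on pooling. TRAV19 gave another order: it made up 6.12% of TRAJ57 chains and 5.98% of TRAJ56 chains but 0.92% of TRAJ58 chains (2 of 217), and 2.99% of TRAJ48 chains. TRAV7 ran from 12.1% with TRAJ50 and 11.5% with TRAJ52 to 4.76% with TRAJ57 and 6.45% with TRAJ58.

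**Figure D3:**
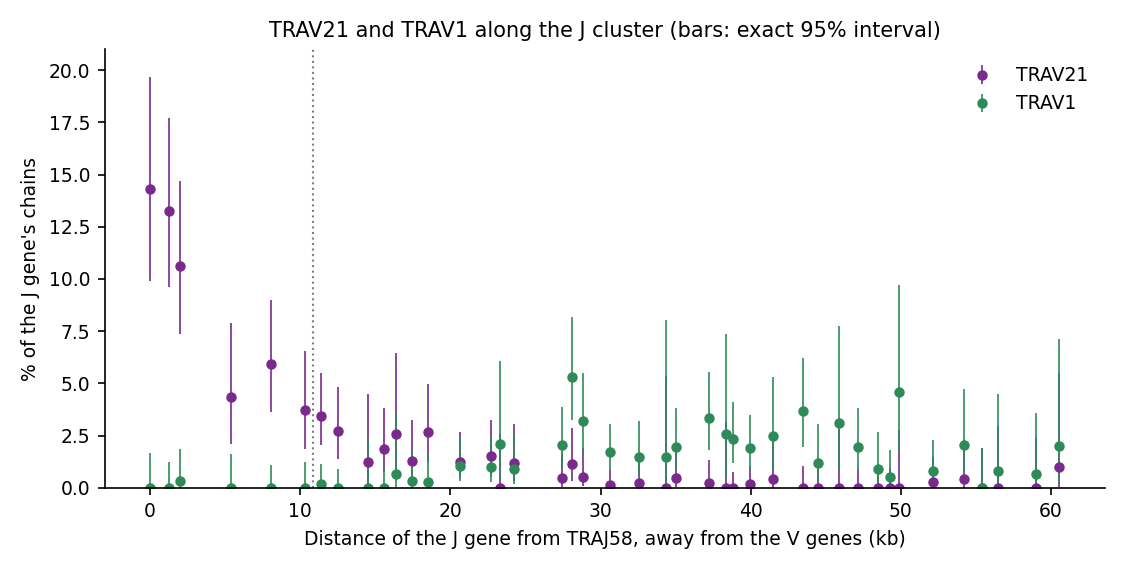
Share of each J gene's chains (%, y axis) that used TRAV21 (purple) or TRAV1 (green), against the distance of the J gene from TRAJ58 (kb, x axis), pooled over the 6 main libraries, for J genes with 60 or more chains; bars are exact 95% intervals. TRAV21 is highest at TRAJ58, TRAJ57 and TRAJ56, and TRAV1 is at or near 0 left of the dotted line, which separates TRAJ50 from TRAJ49. TRAV1 is also low just right of the line, at 0% to 0.65% from TRAJ49 to TRAJ42.

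Joins to the 6 J genes were rare for the V genes placed beyond 1500 kb in GRCm38, with 1 exception. Each chain was placed by its first listed V gene. Some calls listed several genes, such as 87.3% to 96.9% of the TRAV3D-3 calls in WT, so their distance is uncertain. In GRCm38 the TRAV genes under 500 kb from TRAJ58 had 479 of 1460 chains with TRAJ50 and above (32.8%, 30.4% to 35.3%), those at 500 to 1000 kb 396 of 4348 (9.11%), those at 1000 to 1500 kb 754 of 6419 (11.7%) and those beyond 1500 kb 45 of 718 (6.27%). Of those last 45 chains, 44 were called TRAV3-1, a gene singled out after its values were seen. In the main libraries 118 of 128 chains called TRAV3-1 differed by 4 bases from the GRCm38 gene. The position of the gene that gave those 118 chains was not tested in these mice. The other 5 genes of that span, TRAV1, TRAV2, TRAV5-1, TRAV6-1 and TRAV7-1, had 1 of 590 (0.17%, 0.0043% to 0.94%). Among the 11 genes under 500 kb, high shares were 61.9% for TRAV21/DV12, 50% for TRAV19, 28.1% for TRAV17, 27.9% for TRAV16 and 25.0% for TRAV13-4/DV7. Not every gene of that span was high. TRAV3-3, at 491 kb, had 0 of 1, 0 of 9 and 1 of 14 chains with these J genes in WT (dCLN, sCLN, iLN). In 5xFAD it had 2 of 9, 1 of 11 and 1 of 2. The order was not smooth between those ends, and over 64 TRAV genes with 30 or more chains the Spearman correlation of distance and share was -0.46, given as a description, since the genes share libraries and J genes. The bins held for both genotypes at the near end, with 38.2% in WT and 30.0% in 5xFAD under 500 kb.

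**Figure D4:**
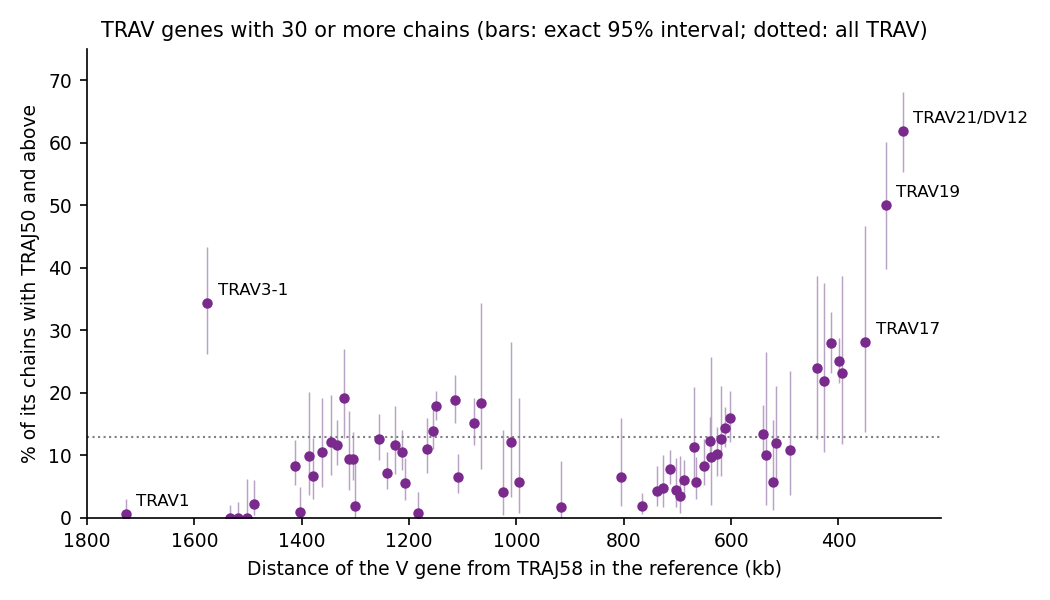
Share of a TRAV gene's chains joined to TRAJ50 and above (%, y axis) against its distance from TRAJ58 in GRCm38 (kb, x axis, J cluster to the right), pooled over the 6 main libraries; bars are exact 95% intervals and the dotted line is the share over all TRAV. TRAV21/DV12 and TRAV19 are highest, and TRAV3-1, drawn at the position of the reference gene, stands apart from the other far genes at 34.4%. Each chain is counted under its first listed V gene.

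The comparison was repeated against TRAJ35 to TRAJ49, the next J genes downstream. TRAV21 was still more frequent with the 6 genes (8.79% ± 1.26 against 1.96% ± 0.85, log2 2.11, SE 0.22, edgeR adjusted p = 2.5e-14), as was TRAV19 (log2 1.82, adjusted p = 8.1e-05). In this edgeR test 6 of 17 subgroups passed (35.3%), the other 4 lower: TRAV7 (log2 -0.48, adjusted p = 0.0019), TRAV5 (-0.55, 0.021), TRAV1 (-2.74, 0.045) and TRAV6 (-0.23, 0.046). The call of TRAV1 was lost when any 1 of the 6 libraries was left out (edgeR adjusted p from 0.076 to 0.13). Those of TRAV5 and TRAV6 were lost without dCLN WT, sCLN WT or iLN WT (0.067 to 0.22), that of TRAV5 also without dCLN 5xFAD (0.080) and that of TRAV6 also without sCLN 5xFAD (0.22) or iLN 5xFAD (0.11). TRAV13 and TRAV16 did not pass here, with log2 values of 0.07 and 0.25.

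The partner preference differed between genotypes for 1 of 19 subgroups (5.26%), TRAV3. In WT it was less frequent with TRAJ50 and above than with other J genes, 1.84% ± 0.22 against 3.58% ± 0.69, and in 5xFAD more frequent, 3.59% ± 0.55 against 1.31% ± 0.47 (SD, n = 3 each). The direction held in 3 of 3 libraries of each genotype, and the log2 difference between genotypes was 2.37 (SE 0.50, edgeR adjusted p = 0.00017). It fell to 1.21 without ambiguous V calls and did not pass (edgeR adjusted p = 0.18), where TRAV4 was called in its place (log2 -1.07, adjusted p = 0.043). The TRAV3 genes were not the same in both genotypes. Chains called TRAV3-1 numbered 33 in WT and 95 in 5xFAD, and 8 (24.2%) and 36 (37.9%) of them used TRAJ50 and above. Chains called TRAV3D-3 numbered 32, 27 and 55 in the WT libraries and 9, 8 and 3 in the 5xFAD libraries (dCLN, sCLN, iLN), with 1 of them in all on TRAJ50 and above; 87.3% to 96.9% of the WT calls also listed another gene. The part of this difference in gene calls and germline genes in the TRAV3 result was not tested. TRAV21 had a log2 difference between genotypes of -0.63 (SE 0.44, edgeR adjusted p = 0.37).

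Junctions of the 6 genes were longer than those of other J genes, and the added length lay in the J bases. The mean junction length, counted in nucleotides from the conserved cysteine codon to the phenylalanine codon, was 43.5, 43.8 and 43.4 in dCLN, sCLN and iLN of WT and 43.6, 43.5 and 43.6 in 5xFAD. Over 6 libraries this was 43.6 ± 0.14 against 40.0 ± 0.21 for other TRAJ genes, a within-library difference of 3.59 ± 0.28 in 6 of 6 libraries (SD). The J gene contributed 3.52 ± 0.30 bases of it, the bases between V and J 0.02 ± 0.09 and the V gene 0.05 ± 0.08. WT and 5xFAD junctions of the 6 genes averaged 43.56 ± 0.21 and 43.58 ± 0.06 (SD, n = 3 each).

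By gene, limma tests of the within-library difference from all other J genes gave longer junctions for 6 of 6, where 50% of the 42 J genes tested were called longer. The differences were 4.54 nucleotides for TRAJ53 (SE 0.27, limma adjusted p = 1.2e-08), 4.21 for TRAJ52, 3.05 for TRAJ56, 2.90 for TRAJ50, 2.31 for TRAJ57 and 2.13 for TRAJ58 (SE 0.29, adjusted p = 1.9e-05). The germline J bases within the junction ran from 26 to 35 over the other 37 J genes, with a median of 29, and 9 of those 37 carried 32 or more. At 32 germline bases the 4 genes TRAJ50, TRAJ56, TRAJ57 and TRAJ58 had mean junctions of 42.5 to 43.4 nucleotides, and the 4 other J genes of that length, TRAJ4, TRAJ17, TRAJ39 and TRAJ45, had 40.4 to 41.7. At 35 bases TRAJ52 (44.5 ± 0.41) and TRAJ53 (44.9 ± 0.80) fell between TRAJ18 (43.6 ± 0.45) and TRAJ2 (45.8 ± 1.44; SD, n = 6).

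**Figure D5:**
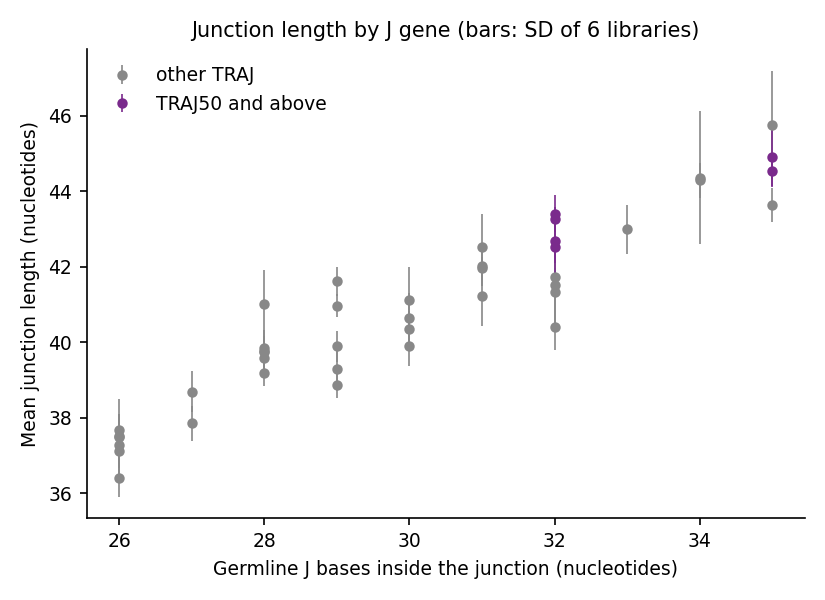
Mean junction length (nucleotides, y axis) of each J gene with 60 or more chains against the number of its germline bases inside the junction (nucleotides, x axis); points are the mean of the 6 main libraries and bars their SD. The 6 genes numbered 50 and above (purple) sit at 32 and 35 germline bases, with means of 42.5 to 44.9.

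The number of bases between V and J did not separate the 6 genes from the pooled other J genes. The mean was 2.71 ± 0.11 for them and 2.69 ± 0.09 for other J genes (SD, n = 6), and 19.3% ± 1.69 and 18.9% ± 1.25 of the chains had none. The pool joins unlike classes, with means of 2.92 ± 0.13 for TRAJ35 to TRAJ49, 2.71 ± 0.15 for TRAJ18 to TRAJ34 and 2.38 ± 0.10 for TRAJ2 to TRAJ17. In the neighbouring TRAJ35 to TRAJ49, 15.9% ± 1.89 of the chains had none. The 6 genes were not tested against single classes for this measure. The limma test called 0 of the 6 genes, where 26.2% of J genes were called in either direction. TRAJ50 had the largest value, 0.40 bases more (SE 0.15, limma adjusted p = 0.073), and was the single one of the 6 with an unadjusted p under 0.05; it was called when 20 chains per library were required (adjusted p = 0.033), and without dCLN WT (0.50 bases, adjusted p = 0.039). TRAJ58 had the lowest, 0.24 fewer (SE 0.18, adjusted p = 0.38). Trimming of the J end did differ among the 6. TRAJ52 and TRAJ53 had lost 1.13 and 1.25 bases more than other J genes (limma adjusted p = 0.00013 and 0.00038), TRAJ58 0.47 more (0.018) and TRAJ50 0.89 fewer (0.00038), while TRAJ56 (-0.27) and TRAJ57 (0.08) did not pass. These 4 of 6 calls stand beside 85.7% over all J genes. TRAJ58 lost its call without dCLN 5xFAD, sCLN WT or sCLN 5xFAD (adjusted p from 0.055 to 0.061).

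Single junctions are shown as examples of joins found in several libraries, chosen for that and so not typical of all chains. The TRAJ56 junction found in the most libraries, 7 of 8, and the TRAV21 junctions with TRAJ58, TRAJ57 and TRAJ56 found in the most libraries are shown, with the bases read as J in capitals.

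TRAV13-4/DV7 with TRAJ56, 7 libraries: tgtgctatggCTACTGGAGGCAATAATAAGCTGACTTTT
TRAV21/DV12 with TRAJ56, 5 libraries: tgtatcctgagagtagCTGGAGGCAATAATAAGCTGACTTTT
TRAV21/DV12 with TRAJ57, 3 libraries: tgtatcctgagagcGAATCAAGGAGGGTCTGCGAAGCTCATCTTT
TRAV21/DV12 with TRAJ58, 2 libraries: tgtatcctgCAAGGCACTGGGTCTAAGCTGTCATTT

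The TRAJ57 junction has 1 base between V and J and the rest have 0. The TRAV13-4/DV7 junction is 39 nucleotides long, has 29 J bases with 3 trimmed from the J end, and was read in 15 cells. The TRAV21 junctions are 42, 45 and 36 nucleotides long, with 6, 1 and 5 J bases missing. Of 1577 distinct V-J-junction combinations of the 6 genes in the main libraries, 72 were in 2 or more libraries (4.57%, exact 95% interval 3.59% to 5.72%), against 597 of 10426 for other J genes (5.73%, 5.29% to 6.19%). Among the shared ones 55.6% had no base between V and J, and among all of the 6 genes' combinations 16.9%; for other J genes these values were 46.1% and 15.7%.

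The J genes whose TRAV profile was most like that of the 6, by Pearson correlation over 19 subgroups of the log2 ratio of TRAV shares to those of the remaining J genes (0.1 percentage points added to each share), were TRAJ48 (r = 0.72), TRAJ42 (0.61), TRAJ49 (0.58), TRAJ43 (0.34) and TRAJ47 (0.24), all between TRAJ42 and TRAJ49. Each of the 6 genes against the other 5 gave r of 0.58 (TRAJ53) to 0.80 (TRAJ57). These values are descriptions over subgroups measured in the same libraries.

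The 2 alpha chains of a cell used these J genes together more often than their separate shares give. Among cells of the main libraries with exactly 1 productive beta chain, 625 had 2 productive alpha chains; both used TRAJ50 and above in 31 (4.96%, exact 95% interval 3.39% to 6.97%), 1 did in 80 and neither in 514. Given that one chain used them, the other chain did so in 43.7% of cases, and given that it did not, in 7.22%. If the 2 chains were unrelated, their separate shares would give 1.29% of cells with both. The link was not limited to the 6 genes: over all J genes the Spearman correlation of the J numbers of the 2 chains was 0.58 over these 625 cells and 0.51 to 0.69 in the 8 libraries, given as a description. In each of the 8 libraries the share given such a chain exceeded the share given another, at 18.2% to 54.2% against 3.48% to 9.21%, although dCLN WT and iLN 5xFAD had 1 such cell each. A droplet that holds 2 cells can also yield 2 alpha chains, and its part in this was not tested.

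Pairing with beta chains differed slightly. Over 10073 distinct alpha-beta clonotypes, 1333 of them with TRAJ50 and above, the edgeR test called 4 of 33 TRBV and TRBJ genes (12.1%). TRBV31 was at 12.4% ± 2.36 against 8.94% ± 1.13 (higher in 6 of 6 libraries, log2 0.46, adjusted p = 0.012) and TRBJ2-7 at 21.1% ± 2.43 against 17.5% ± 1.67 (higher in 4 of 6, log2 0.30, adjusted p = 0.029). TRBJ1-1, at 8.26% ± 2.54 against 10.9% ± 1.49 (log2 -0.46), and TRBV4, at 3.92% ± 1.10 against 6.26% ± 0.81 (log2 -0.67), were lower in 6 of 6 (adjusted p = 0.012 for both). These calls depended on single libraries: there were 0 calls without iLN WT, 1 without sCLN 5xFAD and 1 with DESeq2, and TRBJ2-7 lost its call also without dCLN WT (adjusted p = 0.13) or dCLN 5xFAD (0.17).

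Chains of the 6 genes found in 2 or more cells of a library were few, 2 to 12 per library (0.94% to 3.28% of their distinct chains, at most 5 cells), against 1.97% to 5.93% for other J genes. The difference was not in 1 direction: the 6 genes were lower in 4 libraries and higher in dCLN 5xFAD (2.54% against 2.36%) and iLN WT (3.28% against 2.46%), and it was not tested. Non-productive TRA contigs were listed for the CD4-titled and mixed libraries, and 0 of 37 and 0 of 32 used TRAJ50 and above, which allows shares of up to 9.49% and 10.9% (exact 95% upper bounds). Among distinct productive chains the shares were 13.2% (12.4% to 14.1%) and 10.3% (9.32% to 11.4%). The bound thus lay below the productive share in the CD4-titled library and above it in the mixed one. This contrast was not tested.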

How the data were processed

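Single-cell V(D)J libraries were processed with Cell Ranger 6.0.1, per the submitters' processing notes, and the deposited tables list annotated contigs with V and J calls, junctions and lengths per the file headers. The UMI and read counts per contig are whole-number counts as deposited; the J identity is a fraction per the file headers. Here, productive TRA contigs were reduced to distinct V-J-junction chains per library (first V and first J call). 1 of 9 tables, the second CD4-titled one, was not used. Calls listing several genes were kept and left out in an alternative. Chains per feature were tested with edgeR 4.0.16 (quasi-likelihood, offset of total chains, library or node as block, 10 chains minimum), mean lengths with limma 3.58.1 (5 chains per library minimum), with Benjamini-Hochberg adjustment over all features at 0.05; DESeq2 1.42.0 was an alternative. Standard errors of edgeR values were derived from the p-value and its degrees of freedom. The main edgeR fits were run on simulated counts of the more frequent features, and the limma fit on simulated lengths. The TMM and DESeq2 fits and those without a block were not. Intervals are exact (Clopper-Pearson, 95%) and cover counting error only; the limit for 0 of 1676 chains is 3 counts. Named features were the 6 genes, TRAV subgroups and TRB genes past the threshold, the position lists, TRAJ49 and TRAJ48, and the 5 J genes most alike in TRAV profile. Members and lists were chosen with earlier results of these data known. V positions are from GENCODE (GRCm38); 87 of 90 TRAV genes matched.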

Additional observations from a re-analysis of the deposited data

Results flagged for a closer look

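The preference of TRAV3 for TRAJ50 and above differed between genotypes by 2.37 on the log2 scale in an edgeR interaction test (adjusted p = 0.00017), lower than in other J genes in 3 of 3 WT libraries and higher in 3 of 3 5xFAD libraries. It passed in 12 of the 13 fits run and did not pass without ambiguous V calls (1.21, edgeR adjusted p = 0.18). The 12 fits all kept ambiguous V calls, so they cannot show how far the V calls of the 2 genotypes enter this difference.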

How the results depend on the processing

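The calls of TRAV21, TRAV19 and TRAV1 against all other J genes passed in every alternative that gave them a value, with log2 values of 3.27 to 3.62, 2.38 to 3.15 and -7.30 to -3.93. The number of TRAV subgroups called, 8, was 5 in cells with 1 TRA and 24 of 78 when TRAV genes replaced subgroups. Against TRAJ35 to TRAJ49 it fell from 6 to 2 without TRAJ57 and 3 without TRAJ58. Of 4 TRB genes, 1 was called with DESeq2, 2 without ambiguous calls, 2 without TRAJ50 and 1 without TRAJ58. Of 2 TRAJ genes called between genotypes, 1 was called with TMM, 0 with DESeq2, 5 without the node block, 1 with repeats kept and 0 without ambiguous calls. The 11 genes called for bases between V and J became 7 with medians. Leaving out 1 library at a time gave 7 to 9 calls for all TRAV, 3 to 4 against TRAJ35 to TRAJ49, 0 to 5 for TRB genes, 1 to 2 for genotype, 0 for node, 8 to 12 for bases between V and J, 31 to 35 for J trimming, 35 to 38 for junction length and 1 for the interaction. The summed share difference of 1.69 points between genotypes, for which alternatives were chosen after seeing the data, was 0.54 without ambiguous calls and 1.35 to 2.24 when 1 node type was left out. Genotype values near 0 changed sign: TRAJ53 to -0.042 without ambiguous calls; TRAJ56 to -0.032 with TMM, -0.036 with DESeq2, -0.038 without the node block and -0.25 without ambiguous calls; and TRAJ57 to -0.018 without ambiguous calls. Without single libraries the log2 values ran from -0.042 to 0.11 for TRAJ53, -0.18 to 0.15 for TRAJ56 and -0.14 to 0.43 for TRAJ57. Bases between V and J for TRAJ57 became 0.50 with medians, and those for TRAJ52 ran from -0.19 to 0.0038 without single libraries. The junction call of TRAJ58 was lost with medians (1 nucleotide, limma adjusted p = 0.18). The causes were not tested. The labels give no replicate numbers shared between groups, so the blocks used were node type and library. Between 161 and 473 chains per library limit what can be seen for any single J gene.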

Other observations

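Over the 8 libraries, chains called TRAV3-1 fell into sequence groups that differed in their J use. Such a group is called a copy here, and whether it is another gene or an allele was not tested. Measured from the start of the V gene to the junction against the GRCm38 TRAV3-1 transcript, 170 of 217 such chains in the 8 libraries differed by 4 bases and 26 by 0. Of the 170 chains, 65 used TRAJ50 and above (38.2%, exact 95% interval 30.9% to 46.0%), and of the 26 exact chains 0 did (upper bound 13.2%). Of the 21 chains with another number of differences, 2 did (9.52%). In the main libraries alone these values were 42 of 118 for the 4-base copy and 0 of 2 for exact chains (upper bound 84.2%). The contrast therefore rests on exact chains of the CD4-titled and mixed libraries, which were called against another allele set. The 4-base copy made up 28 of 33 TRAV3-1 chains in the WT libraries and 90 of 95 in the 5xFAD libraries, with 8 and 34 of them on TRAJ50 and above. In the CD4-titled library 21 of 47 chains of the 4-base copy and 0 of 8 exact chains used these J genes; in the mixed library the values were 2 of 5 and 0 of 16. The position of the 4-base copy in the genome of these mice was not tested, and the distance of 1576 kb from TRAJ58 belongs to the reference gene. This grouping of chains was made after their values were seen.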
